A study of Mus musculus with 27 samples.

Results

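Left kidneys of mice were clamped for 16, 18, 20, 22, 24 or 26 min, and the level of each gene was fitted against the minutes of ischemia as a number, to look for graded change across a range in which neighbouring times had not been told apart. These times hold 18 of the 27 kidneys of the study, with 3 mice each. All mice were C57BL/6, the strain of the common black laboratory mouse. Each had the left renal pedicle clamped and the right kidney removed in 1 operation on a platform at 37°C, a model named uIRIx, so the reperfused kidney was the only one left. Kidneys were taken 24 h after the clamp was released. The sham group, at 0 min, had the same operation without ischemia, and the other 2 groups were clamped for 28 and 30 min. The RNA came from whole kidney tissue, no allele or drug was part of any group, and the sources used here do not give the sex or age of the mice.

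A clamped kidney loses oxygen and fuel, and its proximal tubule, which depends on fat oxidation in mitochondria, is the part most easily hurt. Surviving tubule cells take off their brush border, lower the transport genes, switch on injury genes such as Havcr1 (kidney injury molecule 1) and Lcn2 (neutrophil gelatinase-associated lipocalin), and re-enter the cell cycle to replace lost cells. More time under the clamp is known to give more injury.

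Values are FPKM, fragment counts scaled to transcript length and to the mapped fragments of the library, as the authors deposited them. The tests used log2(FPKM + 1) after quantile normalization among the 18 kidneys, for the 17889 genes above 0 FPKM in at least 3 of them. The slope was multiplied by 10, so each fitted change below is the change from 16 to 26 min on the log2 scale. A gene was called graded when the adjusted p-value of its slope in limma was under 0.05. In the 18 kidneys the FPKM summed to between 512450 and 554040, and between 16644 and 16904 genes were above 0. Read counts were not used here and the depth is unknown, so the precision rests on the spread between kidneys.

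Defining markers of kidney were present in all 18 kidneys. The sodium phosphate transporter Slc34a1 of the proximal tubule was between 1195 and 2416 FPKM, and uromodulin (Umod) of the loop of Henle between 715 and 2276 FPKM. The kidney of 16 min replicate 3 stood apart from its group. Its Havcr1 was 35.1 FPKM against 332 and 574 FPKM in replicates 1 and 2, and its Lcn2 was 31.4 FPKM against 388 and 410 FPKM. The highest sham kidney held 22.0 FPKM of Havcr1 and 63.6 FPKM of Lcn2. Because this kidney sits at the low end of the time axis, results below are also given without it. Markers of fat tissue were high in 3 kidneys. Their summed FPKM was 452 in 18 min replicate 1, 401 in 22 min replicate 3 and 170 in 20 min replicate 1, against 44.3 to 83.9 FPKM in the other 15, Cfd (adipsin) ran from 0 to 159 FPKM, and Adipoq (adiponectin) was at 0 in 8 of the 18. None of these 3 kidneys was at 16 or 26 min, and the part of fat tissue in the results was not tested.

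Only 2 of the 17889 genes (0.0112%) were called graded from 16 to 26 min, and both rose. Dusp6, the phosphatase that switches off ERK kinases and is itself induced by ERK signaling, rose by 0.54 on the log2 scale (standard error 0.08, adjusted p = 0.024), a 1.45-fold fitted increase. Gc, the vitamin D-binding protein of plasma, rose by 1.17 (standard error 0.17, adjusted p = 0.024), a 2.26-fold fitted increase. Gc was the only one whose fitted change passed 1 on the log2 scale, the size of change the study asked of its differentially expressed genes (0.00559% of genes).

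Dusp6 stands on chromosome 10 at 99263231 to 99267489 of the GRCm38.p6 assembly. Its FPKM was 16.0, 16.7 and 17.5 in the 16 min kidneys, 19.1, 19.5 and 18.9 in those of 18 min, and 20.5, 22.3 and 19.3 in those of 20 min. The 22 min kidneys held 21.8, 24.5 and 24.3, the 24 min kidneys 25.6, 21.2 and 22.5, and the 26 min kidneys 22.3, 26.1 and 29.4. The 16 min kidneys lay below all 15 of the others, and the 26 min kidneys overlapped those of 22 and 24 min. Dusp6 was picked on its slope in these same kidneys, so this separation adds no support to the call. The means ran from 16.7 ± 0.745 FPKM (SD, n = 3) at 16 min to 25.9 ± 3.56 FPKM at 26 min. No step between neighbouring times passed the test for Dusp6, the largest being 0.19 between 16 and 18 min (standard error 0.09, adjusted p = 0.86 in limma), and the direct comparison of 26 with 16 min gave 0.58 with an adjusted p of 0.28.

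Outside the fitted range, Dusp6 was 15.1, 13.2 and 12.4 FPKM in the sham kidneys, 31.5, 32.5 and 37.0 FPKM at 28 min, and 27.3, 21.7 and 24.3 FPKM at 30 min. The sham kidneys were thus the lowest and the 28 min kidneys the highest of all. Against the line extended from the shorter times, 28 min lay 0.22 above (adjusted p = 0.082) and 30 min lay 0.30 below (adjusted p = 0.024). Without 26 min replicate 3 the 28 min distance was 0.27 with an adjusted p of 0.039 and the 30 min distance -0.25 with an adjusted p of 0.068, and without 30 min replicate 2 the 30 min distance was -0.22 with an adjusted p of 0.12. In the 9 kidneys at 0, 28 and 30 min, which share no sample with the slope, Dusp6 was 0.90 higher after 28 and 30 min than in the sham group (adjusted p = 7.7e-05 from limma).

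Gc stands on chromosome 5 at 89417511 to 89457898 of the same assembly. Its protein is made mostly by the liver and is taken up from the filtrate by the proximal tubule. Its FPKM was 16.8, 35.0 and 22.5 in the 16 min kidneys, 27.6, 30.3 and 18.8 in those of 18 min, and 29.3, 27.3 and 27.6 in those of 20 min. The 22 min kidneys held 37.4, 37.4 and 41.4, the 24 min kidneys 39.4, 47.8 and 33.2, and the 26 min kidneys 60.6, 51.1 and 53.5. All 3 kidneys of 26 min lay above the other 15, while the 16, 18 and 20 min kidneys overlapped. Gc too was picked on its slope in these kidneys, so its separation adds no support. For Gc the largest neighbouring step was 0.49, between 24 and 26 min (standard error 0.21, adjusted p = 0.77).

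Gc did not go on along its line. At 28 min it was 39.2, 54.4 and 32.9 FPKM, 0.54 below the extended line (adjusted p = 0.19), and at 30 min it was 33.1, 27.1 and 10.7 FPKM, 1.67 below it (adjusted p = 2.7e-04). The sham kidneys held 15.7, 24.1 and 31.3 FPKM. The levels of the 28 and 30 min kidneys therefore spanned those of the sham kidneys, and the difference between 28 and 30 min and 0 min was 0.27 (standard error 0.36, adjusted p = 0.58).

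Both calls rest on few kidneys and on the form of the fit. With 1 mean per time and a linear contrast of the 6 means, the adjusted p was 0.11 for both and 0 genes were called by limma, with 1467 at an unadjusted p-value under 0.05. Without the 26 min group it was 0.16 for Dusp6 and 0.88 for Gc, and 0 were called, with 790 at an unadjusted p-value under 0.05. Without the 16 min group it was 0.20 for Dusp6 and 0.023 for Gc. Without 16 min replicate 3 the fitted changes were 0.55 for Dusp6 and 1.20 for Gc, but both adjusted p-values were 0.076 and no gene was called. Leaving out 16 min replicate 1, 18 min replicate 1, 26 min replicate 2 or 26 min replicate 3 also left 0 genes called, and leaving out 24 min replicate 2 or 26 min replicate 1 left Dusp6 alone. Without 16 min replicate 2 the number was 23, of which 9 were positive and 14 negative, Dusp6 and Gc among them. Across the 18 kidneys left out in turn, the change of Dusp6 stayed between 0.49 and 0.60 and that of Gc between 1.07 and 1.36.

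**Figure D1:**
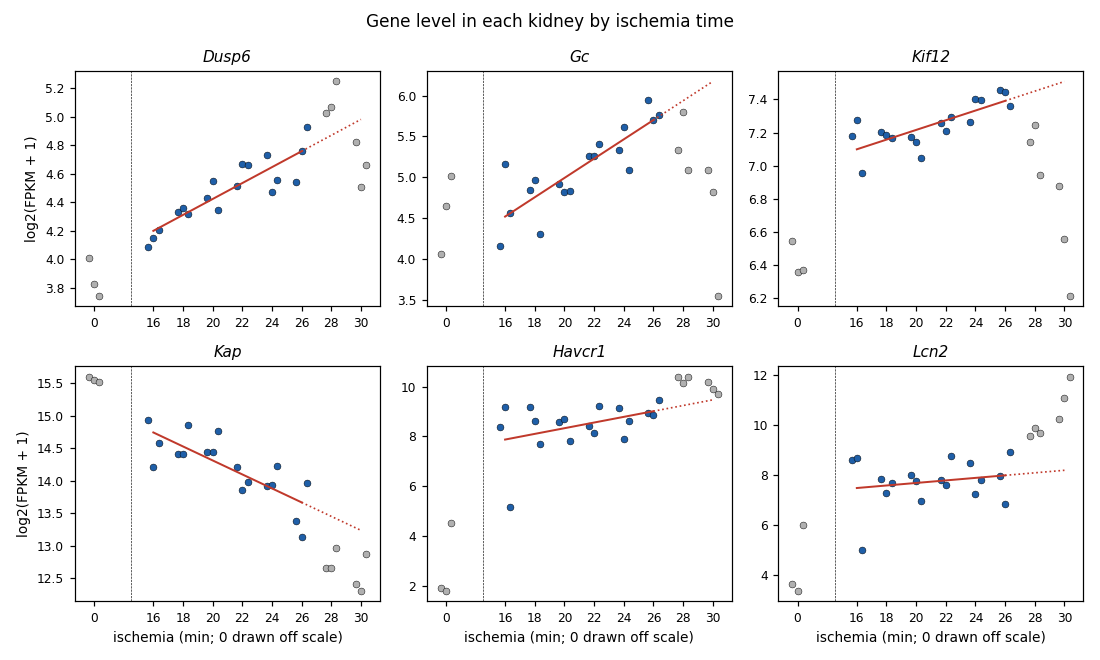
Level of 6 genes in each of the 27 kidneys as log2(FPKM + 1) against minutes of ischemia, with 0 min drawn off scale. Blue points are the 18 kidneys of 16 to 26 min and grey points the 0, 28 and 30 min kidneys, which the line does not use; the red line is a straight line through the blue points before quantile normalization, dotted beyond 26 min. Dusp6 and Gc passed the test, the lowest 30 min point of Gc is at 10.7 FPKM, and the low 16 min point of Havcr1 (35.1 FPKM) and Lcn2 (31.4 FPKM) is replicate 3.

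The promoters of the 2 called genes are given because they are the only genes that passed the test, and that of Pola1 because genes of DNA replication, described below, had fitted changes of 1 sign. Each is 250 bases before to 50 bases after the transcription start in RefSeq on GRCm38.p6, read 5′ to 3′ on the strand of the gene. Capitals mark GTTAAT or its reverse complement, the half-site of the liver and kidney factor HNF1, in the first 2, and an E2F word in the third.
Dusp6, chr10:99262981-99263280, plus strand: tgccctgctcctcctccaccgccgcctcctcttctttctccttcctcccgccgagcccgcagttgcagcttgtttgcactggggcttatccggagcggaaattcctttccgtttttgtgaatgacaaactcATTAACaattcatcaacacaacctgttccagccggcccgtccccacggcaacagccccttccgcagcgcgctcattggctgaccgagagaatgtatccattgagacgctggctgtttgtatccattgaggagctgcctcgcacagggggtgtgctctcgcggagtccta
Gc, chr5:89457849-89458148, minus strand: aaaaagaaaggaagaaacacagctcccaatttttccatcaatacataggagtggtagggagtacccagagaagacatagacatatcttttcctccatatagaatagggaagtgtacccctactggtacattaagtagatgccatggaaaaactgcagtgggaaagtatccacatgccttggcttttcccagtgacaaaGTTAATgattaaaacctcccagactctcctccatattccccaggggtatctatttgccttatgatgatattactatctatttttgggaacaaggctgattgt
Pola1, chrX:93632106-93632405, minus strand: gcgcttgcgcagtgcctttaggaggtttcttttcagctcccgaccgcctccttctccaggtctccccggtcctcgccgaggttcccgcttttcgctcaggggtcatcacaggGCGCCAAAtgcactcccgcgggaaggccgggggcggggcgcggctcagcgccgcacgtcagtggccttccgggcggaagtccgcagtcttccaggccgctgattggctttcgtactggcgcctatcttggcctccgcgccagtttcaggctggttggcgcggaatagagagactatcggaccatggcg

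GTTAAT was found on either strand in 2332 of 32851 promoters of this length (7.1%). The E2F words TTTGGCGC, TTTCCCGC, TTTCGCGC and TTTGCCGC, searched on both strands, were found in 744 promoters (2.26%), and in 11 of the 25 DNA replication genes and 1 of the 23 mitosis genes that had a promoter in the table. The ETS core CCGGAA was in 14.9% of promoters, in 12 of the 25 DNA replication genes (48%) and in 9 of the 23 mitosis genes (39.1%). The AP-1 word TGANTCA was in 7.81% of promoters. Dusp6 and Gc held neither of these in this window. A match in such a window is a string of letters and was not tied to binding. The shares over all count promoters, 32851 from 27025 genes, while a list gene was counted if any of its promoters matched. This difference favors list genes with more than 1 promoter.

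In all, 1578 genes (8.82%) had an unadjusted p-value under 0.05, the 2 called ones included, 829 with a positive change (4.63%) and 749 with a negative change (4.19%). With every kidney brought to the same summed FPKM in place of quantile normalization there were 1854, of which 1344 were positive and 510 negative, so the share that was positive went from 52.5% to 72.5% with the scaling. The median fitted change over all genes was 0.00 and its quartiles were -0.06 and 0.06. For 17573 genes (98.2%) the whole 95% interval of the fitted change lay between -1 and 1. Among the 12327 genes with a mean of at least 1 FPKM, it did so for 12040. Below that level the added 1 FPKM limits how far a value can move, so a narrow interval there does not exclude a doubling.

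The genes nearest to the threshold are named here as not called. On the positive side these were Kif12, a kinesin of kidney tubule cells, with a fitted change of 0.32 (adjusted p = 0.14), Ksr1, a scaffold of the kinases above ERK, with 0.28 (adjusted p = 0.22), and Slc27a3, an acyl-CoA synthetase, with 0.25 (adjusted p = 0.23). Kif12 ran from 123 to 154 FPKM in the 16 min kidneys and from 163 to 174 FPKM at 26 min, with no overlap between these groups. Where a gene was picked on its values in these same kidneys, above, here or below, such a separation adds no support. At 28 min Kif12 was between 122 and 151 FPKM, and at 30 min between 73.3 and 116 FPKM, 0.89 below the extended line (adjusted p = 5.3e-06).

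On the negative side, Stbd1, which anchors glycogen, had a fitted change of -0.51 (adjusted p = 0.14), Wdr31 -0.26 (adjusted p = 0.20), the Notch ligand Dll1 -0.29 (adjusted p = 0.21), and Sec14l3, a lipid carrier, -0.96 (adjusted p = 0.21). Kif12 and Sec14l3 were among the 23 genes called without 16 min replicate 2.

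Of the 17889 genes, 21 had a fitted change above 1 in size and an unadjusted p-value under 0.05, with 10 positive and 11 negative. Those named in this paragraph and the next, other than Gc, were chosen after their values were seen, as the 8 largest in each direction with a mean of at least 1 FPKM. The most negative were Cyp7b1, an oxysterol hydroxylase, and the organic anion transporter Slco1a1, each with a fitted change of -1.88 (standard errors 0.44 and 0.41, adjusted p = 0.23 for both). Slco1a1 was 13.5, 6.82 and 24.0 FPKM at 16 min, 8.21, 9.46 and 13.7 FPKM at 20 min, and 1.43, 2.86 and 5.99 FPKM at 26 min. Every 26 min kidney lay below every 16 min kidney for this gene, and the 28 and 30 min kidneys, between 0.79 and 4.14 FPKM, overlapped those of 26 min. The others were Nccrp1 (-1.73), cholecystokinin Cck (-1.58), the steroid dehydrogenase Akr1c18 (-1.21), the protease inhibitor Pzp (-1.17), the chemokine Ccl28 (-1.13) and the organic anion transporter Slc22a7 (-1.12), with adjusted p-values between 0.23 and 0.55. Pzp and Slco1a1 were among the genes called without 16 min replicate 2.

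The most positive was Gsta1, a glutathione transferase, with a fitted change of 1.96 (standard error 0.49, adjusted p = 0.25). It was 12.1, 58.7 and 10.1 FPKM at 16 min, between 26.7 and 111 FPKM from 18 to 24 min, and 170, 56.7 and 72.6 FPKM at 26 min, so a 16 min kidney overlapped the 26 min group. Gm3776, with 1.56, is a near copy of Gsta1 and Gsta2, and reads can be shared among the 3. The other positive genes were the ribosomal protein gene copy Rps27rt (1.25), osteopontin Spp1 (1.23), the glucuronosyltransferase Ugt1a2 (1.23), the cornified envelope gene Sprr2f (1.21) and Fam177a (1.18), with adjusted p-values between 0.38 and 0.57.

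The genes that the study followed by qPCR in kidney had no called slope. Havcr1 had a fitted change of 1.16 (95% interval -0.06 to 2.38, adjusted p = 0.58) and Lcn2 of 0.53 (-0.72 to 1.79, adjusted p = 0.84). Over the 18 kidneys, Havcr1 ran from 35.1 to 711 FPKM with a median of 389, and Lcn2 from 31.4 to 480 FPKM with a median of 222. Without 16 min replicate 3, the fitted change of Havcr1 was 0.40 and the fitted change of Lcn2 was -0.16. The fitted change was 0.08 (-0.18 to 0.34) for Il6, for the prostaglandin synthase Ptgs2 -0.02 (-0.24 to 0.21), and for the muscle-type phosphoglycerate mutase Pgam2 -0.08 (-0.63 to 0.48). The interval of Pgam2 excludes a change of 1 in either direction on this scale, and those of Havcr1 and Lcn2 do not. Il6 and Ptgs2 had means of only 0.26 and 0.38 FPKM over the 18 kidneys. With 1 FPKM added before the log2, a doubling would move them by far less than 1. Their narrow intervals therefore do not exclude a doubling.

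Steps between neighbouring times gave no call. In the 5 comparisons of each time with the one before it, limma called 0 of 17889 genes, while 1020, 573, 503, 578 and 1108 genes had an unadjusted p-value under 0.05 in order from 18 against 16 min to 26 against 24 min (5.70%, 3.20%, 2.81%, 3.23% and 6.19%). For 26 against 16 min it called 0, and 1678 genes (9.38%) passed without adjustment. The 6 means did not leave a straight line by more than the spread for any gene either, with 0 called by the F test in limma and 745 genes (4.16%) passing without adjustment. The 5 genes with the smallest p-value for a departure at a mean of 1 FPKM or more were Kbtbd2, Zfp763, Vstm4, Nme5 and Zfp109, with an adjusted p-value of 0.65 for the first 3 and more for the others. The means of Kbtbd2 were 4.81 FPKM at 22 min and between 5.85 and 6.35 FPKM at the other 5 times.

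To set these small slopes beside kidneys that the fit had not used, genes were chosen on the 9 kidneys of 0, 28 and 30 min alone. There, 818 genes (4.71%) were higher and 887 (5.11%) were lower after 28 and 30 min than in the sham group, each by more than 1 on the log2 scale at an adjusted p under 0.05. Of the 818 higher genes, 706 (86.3%) had a positive fitted change from 16 to 26 min, against 51.2% of all genes, with a median of 0.20. Of the 887 lower genes, 765 (86.2%) had a negative one, against 48.8% of all genes, with a median of -0.16. An unadjusted p-value under 0.05 was found for 149 of the higher genes with a positive and 3 with a negative change, and for 182 of the lower genes with a negative and 3 with a positive change. None of the 1705 was called.

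These shares depended on kidneys at both ends of the range. Without 16 min replicate 3 they were 66.9% and 74.0%, with medians of 0.08 and -0.12, and without 26 min replicate 3 they were 82.2% and 75.8%. Without the whole 16 min group they were 78.2% and 87.9%, and without the 26 min group 83.8% and 70.6%. Over the 4 middle times alone, 18 to 24 min, they were 70.0% and 67.4%.

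A score, the mean log2(FPKM + 1) of the higher genes minus that of the lower genes, places each kidney between the 2 ends. Its mean was -0.65 ± 0.64 (SD, n = 3) in the 16 min group, -0.49 ± 0.18 in the 18 min group and -0.56 ± 0.28 in the 20 min group. The 22 min group had -0.37 ± 0.26, the 24 min group -0.43 ± 0.29 and the 26 min group -0.15 ± 0.19. The sham kidneys were at -2.03 ± 0.17, the 28 min kidneys at 1.11 ± 0.05 and the 30 min kidneys at 1.55 ± 0.01, but these 9 chose the genes and their distance is fixed by the choice. The 16 min kidneys alone ran from -1.31 in replicate 3 to -0.04 in replicate 2, which is wider than the means of the 6 times. Among the kidneys of 16 to 26 min the highest score was 0.07, in 26 min replicate 3. The gap from there to the 28 min kidneys is not a result, since the 28 min kidneys helped to choose the genes.

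**Figure D2:**
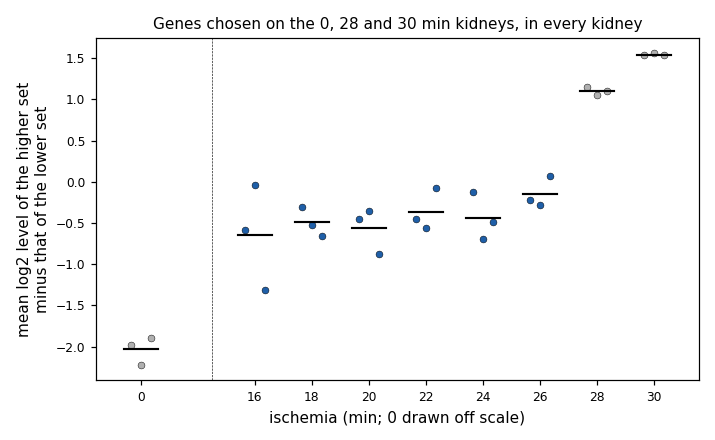
Score of each kidney, the mean log2(FPKM + 1) of 818 genes higher at 28 and 30 min than in the sham group minus that of 887 lower genes, against minutes of ischemia, with 0 min drawn off scale; bars are the means of 3 kidneys. The blue kidneys, not used to choose the genes, run from -1.31 to 0.07. The grey 28 and 30 min kidneys, which were used, lie above 1, and the choice of genes favors this gap.

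Gene lists were then described by the fitted changes of their members. The lists held 614 of the tested genes, of which 0 were called by limma and 86 had an unadjusted p-value under 0.05. Over all genes 0.0112% were called and 8.82% had such a p-value, 4.63% with a positive and 4.19% with a negative change. The counts given for each list are to be read beside these shares. In bulk tissue, fewer cells of a type and less RNA per cell cannot be told apart.

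All 31 DNA replication genes had a positive fitted change, with a median of 0.43, and 9 had an unadjusted p-value under 0.05. Pola1, the catalytic subunit of DNA polymerase alpha, had the smallest p, with a fitted change of 0.47 (standard error 0.16, adjusted p = 0.43). It was 1.54, 2.65 and 1.90 FPKM at 16 min and 3.28, 4.41 and 3.15 FPKM at 26 min. These groups did not overlap, although 20 min replicate 3 was as low as 1.58 FPKM. The helicase subunit Mcm5 went with 0.65, the licensing factor Cdt1 with 0.64, Gins2 with 0.55, Cdc6 with 0.54 and the sliding clamp Pcna with 0.48, none of them called. All 31 remained positive with any 1 of the 18 kidneys left out, with medians from 0.29 (without 16 min replicate 3, when 1 of the 31 had an unadjusted p-value under 0.05) to 0.54 (without replicate 2, when 19 had), and 29 remained positive without the 16 min group, with a median of 0.18 and 0 at an unadjusted p-value under 0.05.

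Mitosis genes did not share this. Of 28, 14 were positive and 14 negative, with a median of -0.01 and 0 at an unadjusted p-value under 0.05, and the intervals of all 28 lay between -1 and 1. The even split depended on single kidneys. With 1 kidney left out, between 1 and 21 of the 28 were positive. Their median ran from -0.21 without 16 min replicate 1 to 0.11 without 16 min replicate 2. Without the 16 min group 24 of the 28 were negative, with a median of -0.18 and 0 at an unadjusted p-value under 0.05 in limma. The mean log2 level of the mitosis list was 2.55 ± 0.55 at 16 min and 2.65 ± 0.52 at 26 min, and that of the DNA replication list was 3.11 ± 0.47 and 3.70 ± 0.12 (SD, n = 3 each).

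Both cell cycle lists lay below their lines at 30 min, and at 28 min mitosis genes alone had members called below. For DNA replication, 0 of 31 genes left the extended line at 28 min and 24 lay below it at 30 min, where 15.9% of all genes lay below it. For mitosis, 6 of 28 genes lay below the line at 28 min, where 9.99% of all genes did, and 25 at 30 min, with a median distance of -1.31 for the list at 30 min. The 28 min kidneys thus held the highest mean level of the DNA replication list, 4.02 ± 0.14, beside a mitosis level of 1.97 ± 0.06.

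All 24 cytosolic ribosomal proteins had a positive fitted change too, but a small one, between 0.04 and 0.22 with a median of 0.13, and 7 had an unadjusted p-value under 0.05. Rplp2, of the ribosomal stalk, had 0.22 (standard error 0.08, adjusted p = 0.43), and Rpl3 0.18. The median was 0.07 without 16 min replicate 3, with 23 positive and 3 at an unadjusted p-value under 0.05, and 0.19 without replicate 2, with 15. Without quantile normalization 3 of the 24 were at that level, and without the 26 min group 0 in limma. In the 16 min kidneys the mean log2 level of this list was 8.77, 8.91 and 8.37, and in the 26 min kidneys 8.96, 8.71 and 8.87, which overlap. At 28 min 22 of the 24 lay above the extended line, where 13.0% of all genes did, with a median distance of 0.34. Of 24 ribosome biogenesis genes, 21 had a positive fitted change (median 0.11, or 0.05 without 26 min replicate 3) and 23 lay above the line at 28 min (median 0.60). The nucleolar methyltransferase Fbl had a fitted change of 0.25 (adjusted p = 0.44) and lay 0.58 above the line at 28 min (adjusted p = 2.0e-04).

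**Figure D3:**
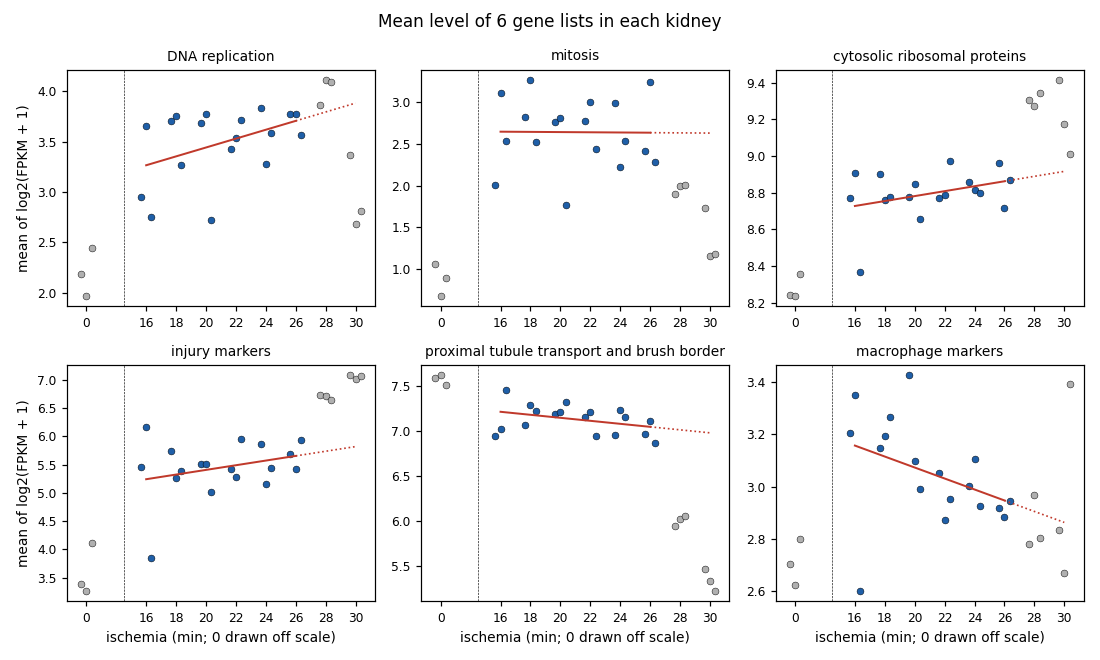
Mean log2(FPKM + 1) of 6 gene lists in each of the 27 kidneys against minutes of ischemia, with a straight line through the 18 blue kidneys of 16 to 26 min, dotted beyond, and 0 min drawn off scale. The DNA replication list has a mean of 3.11 at 16 min and 3.70 at 26 min while the mitosis list has 2.55 and 2.65, and the grey 28 and 30 min points of the proximal tubule list lie far below its dotted line.

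Of 23 injury markers, 20 had a positive fitted change, with a median of 0.32, and 3 had an unadjusted p-value under 0.05, Spp1, keratin Krt20 and Sprr2f, with 1.23, 1.05 and 1.21. Spp1 was 7903, 10483 and 1192 FPKM in the 16 min kidneys, and 10877, 9549 and 13653 FPKM at 26 min. Replicate 3 of 16 min was the lowest of the 18 for Spp1, and replicate 2 lay within the range of the 26 min group. With replicate 3 left out, 14 of the 23 injury markers were positive, the median was 0.05, and at an unadjusted p-value under 0.05 there were 0 positive and 2 negative genes in limma. With replicate 2 left out instead, the median was 0.54 and 11 were positive at that level. At 28 min 10 of the 23 lay above the line, and at 30 min 15, against 13.0% and 19.3% of all genes, with median distances of 0.98 and 1.20. Havcr1 was 1.16 above the line at 28 min (adjusted p = 0.19), and 1.51 above it without 16 min replicate 3 (adjusted p = 0.0055).

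Of 20 immediate early and AP-1 genes, mostly transcription factors induced within minutes of a stimulus, 19 had a positive fitted change, with a median of 0.33. An unadjusted p-value under 0.05 was found for Klf4 (0.34), Klf6 (0.67), Maff (0.61), Btg2 (0.57), Zfp36 (0.55) and Fosl2 (0.46). Leaving out 16 min replicate 3 gave a median of 0.28, 18 of 20 positive and 2 at an unadjusted p-value under 0.05, and leaving out replicate 2 gave 0.53, 20 and 12. Of 25 extracellular matrix genes 21 were positive, with a median of 0.28, and 7 had an unadjusted p-value under 0.05, among them the fibrillar collagens Col1a1 (0.54), Col1a2 (0.43) and Col3a1 (0.56) and the basement membrane collagens Col4a1 (0.41) and Col4a2 (0.34). With 16 min replicate 3 left out the median was 0.12, and in limma 0 had an unadjusted p-value under 0.05. Col3a1, which lay 1.18 below the line at 28 min (adjusted p = 0.0075) and 1.94 below it at 30 min (adjusted p = 1.3e-04), was the only one of the 25 called below at 28 min. Col1a1 lay 0.82 below at 28 min (adjusted p = 0.072) and was called below at 30 min (adjusted p = 0.0023), and Col4a1 lay 0.04 and 0.28 above (adjusted p = 0.92 and 0.33).

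Of 28 cytoskeleton and tubulin genes, 24 had a positive fitted change (median 0.15) and 5 an unadjusted p-value under 0.05. Without 16 min replicate 3 the median was 0.09 with 3 positive and 1 negative at that level, and without replicate 2 it was 0.27 with 17 positive. The actin crosslinker Actn4 had 0.14 (standard error 0.04, adjusted p = 0.25) and tubulin Tubb2a 0.34 (standard error 0.09, adjusted p = 0.26). Of 22 NRF2 target and redox genes, 16 were positive (median 0.22, or 0.11 without 26 min replicate 3 and 0.14 without 16 min replicate 3), and 7 had an unadjusted p-value under 0.05. These were the glutathione transferases Gsta1 (1.96), Gsta4 (0.94), Gsta2 (0.73) and Gstp1 (0.34), the peroxidases Gpx3 (0.33) and Prdx6 (0.20), and superoxide dismutase Sod1 (-0.15). Gsta4 was 31.4, 60.5 and 41.2 FPKM at 16 min and 96.3, 98.6 and 68.1 FPKM at 26 min, without overlap. The value of Gpx3 depended on the scaling, since it was -0.01 without quantile normalization and 0.01 with equal summed FPKM.

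**Figure D4:**
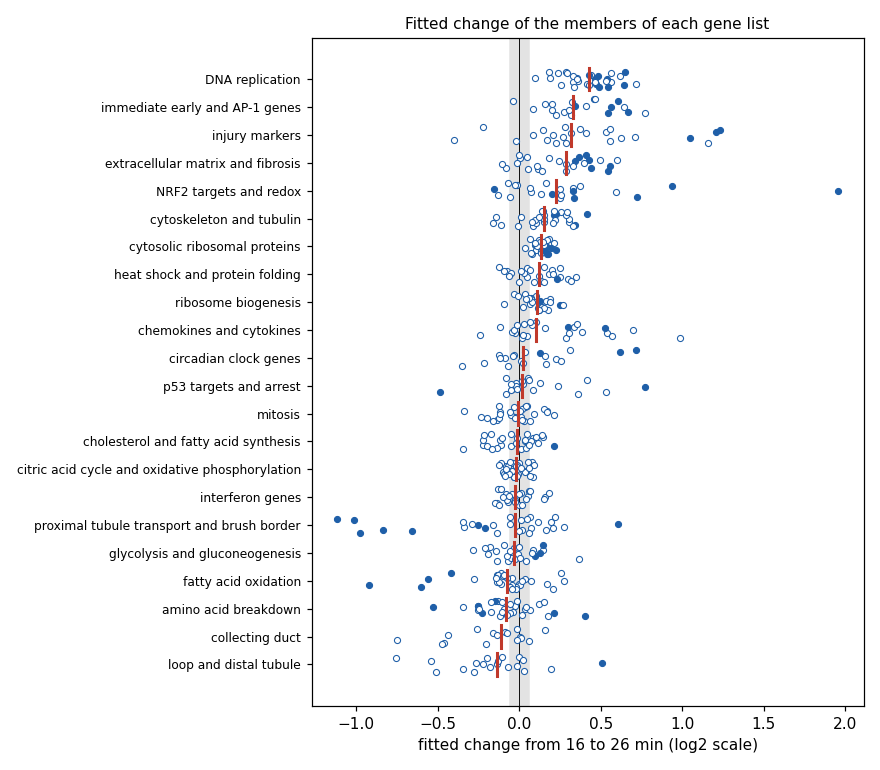
Fitted change from 16 to 26 min on the log2 scale for each member of 22 gene lists. Filled points have an unadjusted p-value under 0.05, none passed an adjusted p-value of 0.05, red bars are list medians and the grey band holds the middle of all 17889 genes, from -0.06 to 0.06; the DNA replication list has the highest median (0.43), with all its points above 0.

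Genes of proximal tubule transport and brush border did not move as 1 list. Of 28, 13 had a positive and 15 a negative fitted change, with a median of -0.03, but 7 had an unadjusted p-value under 0.05 on the negative side and 1, the sulfate transporter Slc13a1 (0.61), on the positive side. The 7 were Slc22a7 (-1.12), the amino acid transporter Slc7a13 (-1.01), the brush border protease Mep1b (-0.98), Kap (-0.84), Slc22a30 (-0.66), the urate transporter Slc22a12 (-0.26) and gamma-glutamyl transferase Ggt1 (-0.21). All 7 lay further below the line at 28 min, Mep1b by 3.32 and Slc7a13 by 2.83, the largest of them, and 20 of the 28 genes lay below it at 28 min and 25 at 30 min, against 9.99% and 15.9% of all genes. The list median ran from -0.18 without 16 min replicate 1 to 0.03 without 26 min replicate 3.

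Kap, the kidney androgen-regulated protein of proximal tubule cells, was 31299, 18844 and 24504 FPKM at 16 min, 22244, 22144 and 27815 FPKM at 20 min, and 10677, 9022 and 15967 FPKM at 26 min. All 3 kidneys of 26 min lay below all 3 of 16 min. The fitted change was -0.84 (standard error 0.21, adjusted p = 0.25). Kap or Gpx3 was the most abundant gene in all 18 kidneys, Kap in 5 and Gpx3 in 13, so quantile normalization gave both of them the value of their rank. Without quantile normalization the fitted change of Kap was -1.07 (adjusted p = 0.12), and its level went on to 6470, 6439 and 7975 FPKM at 28 min.

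Of 31 fatty acid oxidation genes, 23 had a negative fitted change (median -0.07), 5 of them with an unadjusted p-value under 0.05. These were the omega-hydroxylase Cyp4b1 (-0.60, adjusted p = 0.25), the acyl-CoA synthetases Acsm3 (-0.92) and Acsm2 (-0.56), and the acyl-CoA dehydrogenases Acadm (-0.42) and Acads (-0.14). Of 30 amino acid breakdown genes 21 were negative (median -0.08), and 4 of these had an unadjusted p-value under 0.05, Gnmt (-0.53), Haao (-0.25), Ivd (-0.23) and Bckdha (-0.15), beside Kynu (0.40) and Keg1 (0.22) on the positive side. The medians of these 2 lists were 0.00 and 0.01 when 16 min replicate 3 was left out, with 5 and 0 genes negative at an unadjusted p-value under 0.05, and -0.13 and -0.13 when replicate 2 was left out, with 7 and 8. For the 32 genes of the citric acid cycle and oxidative phosphorylation the median was -0.02 and every fitted change lay between -0.13 and 0.09, with 0 at an unadjusted p-value under 0.05 in limma. The sign of that median rested on single kidneys: it was 0.05 without 16 min replicate 3, with 23 of 32 positive and 3 of them at an unadjusted p-value under 0.05, and -0.07 without replicate 2, with 3 negative at that level. At 28 min 23 of these 32 lay below the line, against 9.99% of all genes.

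The 24 interferon genes had fitted changes between -0.15 and 0.18 with a median of -0.03, and in limma 0 had an unadjusted p-value under 0.05. The flat median depended on the ends of the range. Without the 16 min group 22 of 24 were negative, with a median of -0.21 and 6 at an unadjusted p-value under 0.05, and without the 26 min group 23 were positive, with a median of 0.19. Without 16 min replicate 3 alone 21 were negative, with a median of -0.21. Over all 18 kidneys the interval of each lay between -1 and 1, though Nlrc5 and Cxcl9, with means of 0.62 and 0.32 FPKM, could not move far.

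Other cell types were described by their markers. Of 11 macrophage markers, 9 had a negative fitted change (median -0.26) and 5 of these an unadjusted p-value under 0.05, the growth factor receptor Csf1r (-0.57, adjusted p = 0.38), the complement genes C1qa (-0.39), C1qb (-0.33) and C1qc (-0.43), and Ly86 (-0.34). All 11 were negative without 16 min replicate 3, with a median of -0.44, while the median was -0.12 without replicate 1 and -0.15 without replicate 2, when 3 were at an unadjusted p-value under 0.05. Their summed level ran from 88.2 to 175 FPKM over the 18 kidneys. Neutrophil markers had a median of -0.03, endothelial markers of 0.11 and podocyte markers of 0.07, with 0 of these 21 genes at an unadjusted p-value under 0.05 in limma. With single kidneys left out these medians ran from -0.10 to 0.02, from 0.00 to 0.16 and from -0.09 to 0.21. The neutrophil markers were near the floor, with median levels from 0.07 FPKM (Mmp8) to 1.935 FPKM (Cxcr2). Their small fitted changes therefore say little about neutrophil content.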

How the data were processed

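RNA from 27 mouse kidneys was sequenced on a DNBSEQ-G400. The authors deposited FPKM per gene symbol (19392 genes, 2 decimals), and the submitters' processing notes name Bowtie2, RSEM, DESeq2 and GRCm38.p6, with versions not given in the sources used here. Read depth is unknown. The 18 kidneys of 16 to 26 min were grouped by their labels, log2(FPKM + 1) was quantile normalized among them, and slopes, means per time and distances from the line were fitted with limma 3.58.1 in R 4.3.3, with two-sided tests and Benjamini-Hochberg adjustment over all genes tested. All adjusted p-values are from limma. Comparisons of means and the departure test were set against the spread between mice of 1 time. Slopes and distances from the line were set against the scatter about the line, which also holds any departure of the means from it. Genes above 0 FPKM in fewer than 3 of the 18 kidneys (1503) were not tested. Distances used the 24 kidneys of 16 to 30 min, and 28 and 30 min against 0 min used the other 9, each normalized among themselves. The fits were also run on simulated data with independent noise for each gene. Such data lack deviations shared by the genes of 1 kidney, so they do not show how far single kidneys move the calls. Sequences are from RefSeq, and figures were drawn with matplotlib 3.10.9.

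Genes were named by a rule: the 12 largest called changes in each direction, the 5 smallest p-values in each direction at a mean of 1 FPKM or more, up to 4 called members per list or else that with the smallest p, the genes the study followed by qPCR, and the 5 smallest p-values for departure from a line. The 8 largest changes in each direction and list members at an unadjusted p under 0.05 were added after the values were seen. Some genes the rule selects are not reported here. The members and lists were chosen with earlier results of these data known. Alternatives were another pseudocount, scaling, filter, variance model and replicate block, and leaving out times or kidneys.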

Additional observations from a re-analysis of the deposited data

How the results depend on the processing

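The count of 2 graded genes was the same, with Dusp6 and Gc called, under a pseudocount of 0.1 FPKM, no quantile normalization, equal summed FPKM, a filter at 1 FPKM, no filter, a variance trend, robust estimation and the replicate block. It was 0 with a linear contrast of the 6 means (adjusted p = 0.11 for both), 4 without the 16 min group (Cpq, Gc, Kif12 and Tmem269), 0 without the 26 min group, 0 without both groups, and 10 without 16 min replicates 2 and 3 together, an alternative chosen after seeing the data. Unadjusted p-values under 0.05 then numbered 1467, 1879, 790, 827 and 2268. With 1 kidney left out the count ran from 0 to 23. The cause was not tested. Counts with 1 kidney left out ran from 0 to 1 for 22 against 20 min (1 without 22 min replicate 2), 24 against 22 min (22 min replicate 2), 26 against 24 min (26 min replicate 1) and departure from a line (22 min replicate 2), and from 0 to 3 for 26 against 16 min (3 without 16 min replicate 2). The replicate block gave 1 call for 24 against 22 min and changed no other count of calls by over 1.5 times. The main fits did not treat replicate numbers as pairs. Deviations of same-numbered kidneys correlated between -0.42 and 0.48 (mean 0.02, above 0.1 in 16 of 45 pairs). Those of different-numbered kidneys correlated between -0.52 and 0.52 (mean -0.01, above 0.1 in 32 of 90 pairs). These means cannot exclude a batch shared by some same-numbered mice. With a pseudocount of 0.1 FPKM, 1418 genes were higher and 1457 lower at 28 and 30 min than at 0 min. Depth is unknown, and 3 mice per time limit what small slopes can show.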

Other observations

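Clock genes were split. Of 19 circadian genes, 11 had a positive and 8 a negative fitted change from 16 to 26 min (median 0.02, between -0.03 and 0.05 with single kidneys left out), and 3 had an unadjusted p-value under 0.05, the light-responsive repressor Per1 (0.72), Ciart (0.62) and Nr1d2 (0.13), none of them called in limma. Among 20 genes of p53 targets and arrest, the kinase Plk3 had 0.77 and the cell cycle inhibitor Cdkn2b -0.48, and the list median was 0.02, between -0.02 and 0.11 with single kidneys left out. In the loop and distal tubule list 15 of 19 genes were negative (median -0.14, from -0.24 without 16 min replicate 2 to -0.03 without 26 min replicate 3), while the calcium channel Trpv5 had 0.51 (adjusted p = 0.39). The clock hour at which kidneys were taken is not given in the sources used here.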
